A study of Homo sapiens with 9 samples.

Results

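The genes described here encode 10 proteins that modify, fold, trim and cross-link collagen: P4HA1, P4HA2, PLOD1, PLOD2, PLOD3, LOXL1, LOXL2, SERPINH1, PCOLCE and BMP1. They were chosen by symbol from the annotation of the array, and all 10 were found among the 11963 genes that had a probe set with 1 symbol. Together they had 16 probe sets, of which the brightest on average was used for each gene. Expression was measured in HK-2, an immortalised human cell line of kidney proximal tubule epithelium. The groups, with 3 arrays each, were an untreated one (0 h) and those stimulated with transforming growth factor β1 (TGFβ1) for 24 h or for 48 h, all grown in the same medium with growth factor and hormones. Each array held RNA pooled from the plates of 1 time point in 1 of 3 runs, which used consecutive passages of this 1 line, so replicates measure the spread between runs. The 0 h cells are called untreated in the sample labels and vehicle in the design text. Untreated cultures kept for as long as the stimulated ones are not analysed here, and stimulation therefore cannot be told apart from time in culture. No source used here states the TGFβ1 dose.

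Collagen chains are modified in the endoplasmic reticulum before they leave the cell. Prolyl 4-hydroxylase, built from a catalytic alpha subunit (P4HA1 or P4HA2) and the P4HB subunit, hydroxylates prolines and so makes the triple helix stable at body temperature. The lysyl hydroxylases PLOD1, PLOD2 and PLOD3 hydroxylate lysines that later carry sugars or cross-links, and SERPINH1 (HSP47) is the chaperone of the folded helix. Outside the cell BMP1 removes the C-terminal propeptide of fibrillar procollagens, PCOLCE enhances that step, and lysyl oxidases such as LOXL1 and LOXL2 start the cross-links. These steps are widely studied in fibrosis, in the kidney as elsewhere, and TGFβ1 is known to raise several of these enzymes in fibroblasts.

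All levels are deposited log2 values of single probe sets, and differences are log2 fold changes, with time points given in order. A gene was tested when its value was at least 4 on at least 3 arrays, a filter that 4368 genes passed. Of the 10 genes 8 passed it, and PCOLCE and BMP1 did not. The test was limma on all 9 arrays, p-values were adjusted by Benjamini-Hochberg across the 4368 genes, and an adjusted p of at most 0.05 passed. In these bulk samples fewer cells of a kind and less RNA per cell cannot be told apart. Arrays of 1 run shifted together, so the same test with the run as a block is given where it changes a call.

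The promoters of 3 of the genes are shown first, because P4HA2 was the gene that passed the test and P4HA1 and PLOD2 were those whose values moved with the run. RefSeq windows of 250 bases before to 50 bases after the annotated start were matched for 8 of the 10 genes, and LOXL2 and BMP1 were not matched. On build GRCh38.p14 the windows lie on the minus strand at chr5:132227042-132227341 (P4HA2), chr10:73096817-73097116 (P4HA1) and chr3:146161135-146161434 (PLOD2). Capitals mark ACGTG and GCGTG, the core letters bound by hypoxia-inducible factors, and CAGAC, the letters of the SMAD box through which TGFβ1 signals. Each was searched on both strands, so a capital run may be the reverse complement. In PLOD2 a CAGAC and an ACGTG overlap.
P4HA2: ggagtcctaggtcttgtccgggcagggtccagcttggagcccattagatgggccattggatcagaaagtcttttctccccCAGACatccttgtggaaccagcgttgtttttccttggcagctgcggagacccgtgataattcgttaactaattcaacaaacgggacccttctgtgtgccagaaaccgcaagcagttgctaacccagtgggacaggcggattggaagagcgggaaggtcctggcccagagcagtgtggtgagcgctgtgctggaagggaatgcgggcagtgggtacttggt
P4HA1: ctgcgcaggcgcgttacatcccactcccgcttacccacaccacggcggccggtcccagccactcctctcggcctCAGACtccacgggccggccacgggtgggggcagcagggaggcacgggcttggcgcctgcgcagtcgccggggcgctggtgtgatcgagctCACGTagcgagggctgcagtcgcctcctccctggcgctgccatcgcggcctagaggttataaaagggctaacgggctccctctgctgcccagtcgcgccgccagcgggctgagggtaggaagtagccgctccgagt
PLOD2: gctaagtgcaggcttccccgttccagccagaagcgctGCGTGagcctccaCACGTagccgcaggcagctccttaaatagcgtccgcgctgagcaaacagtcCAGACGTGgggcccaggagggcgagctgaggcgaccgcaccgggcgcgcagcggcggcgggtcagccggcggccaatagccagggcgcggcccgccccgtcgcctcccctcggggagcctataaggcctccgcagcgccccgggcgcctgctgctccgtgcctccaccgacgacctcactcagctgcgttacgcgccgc

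The P4HA2 window held 0 matches to ACGTG and 0 to GCGTG. The P4HA1 window held 1 ACGTG and 0 GCGTG, and the PLOD2 window 2 ACGTG and 1 GCGTG. Of all 35116 windows in the table, 21.4% hold ACGTG and 36.5% hold GCGTG. Among the 8 matched genes, ACGTG was found for P4HA1, PLOD2 and SERPINH1, and GCGTG for PCOLCE, PLOD1, PLOD2 and SERPINH1. CAGAC was found 1 time in each of the 3 windows printed, is present in 45.3% of all windows, and was found for 4 of the 8 genes (LOXL1, P4HA1, P4HA2 and PLOD2).

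In all 7 motifs were searched, and the 4 not marked were GTCTAGAC (a palindromic SMAD element, 0 of the 8 genes and 0.202% of all windows), GGCGC (a GC-rich SMAD element, 6 genes and 48.6%), GGGCGG (the GC box, 5 genes and 45%) and TATAAA (the TATA box, 1 gene, P4HA1, and 11.5%). GGCGC can share bases with GGGCGG, and ACGTG with CAGAC. The windows printed and the motifs marked were chosen after the expression values and the matches had been seen. A match describes letters only, and a window without one says nothing about sites elsewhere.

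In the fit without the block P4HA2 was the 1 gene of the 8 tested that rose. It did so at 48 h, where 2.27% of all tested genes were called higher. With the run as a block it was called at both times, beside 11.5% of all tested genes at 24 h and 10.0% at 48 h. Its difference of 48 h from 24 h was 0.06 and passed in neither fit (adjusted p = 0.954, and 0.82 with the block, limma). Its probe set (202733_at) read 7.63, 7.74 and 7.98 in untreated cells of runs 1, 2 and 3, then 8.28, 8.54 and 8.94 at 24 h, and 8.58, 8.46 and 8.91 at 48 h. All 6 treated arrays lay above the 3 untreated arrays, a separation upward that 8.68% of all tested genes showed at 24 h and 9.75% at 48 h, and the 2 treated groups overlapped. At 48 h the log2 fold change against untreated cells was 0.86 ± 0.20 (SE, 3 arrays per group, 1.82-fold, adjusted p = 0.0413, limma), with a 95% interval of 0.41 to 1.31. At 24 h it was 0.80 (1.74-fold, interval 0.35 to 1.25) and did not pass the threshold (adjusted p = 0.0549, limma), whereas with the run as a block it did (adjusted p = 0.00366).

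Within the runs P4HA2 was higher by 0.65, 0.80 and 0.96 at 24 h, and by 0.94, 0.71 and 0.92 at 48 h. It was thus higher in 3 of 3 runs at both times, with an SD between runs of 0.16 at 24 h and 0.13 at 48 h. In the fit without the block the 48 h call rested on small margins. Again without the block, its adjusted p ranged from 0.0315 to 0.316 (limma) when an array or a run was left out. It passed in 3 of those 12 fits. Those were the fits without the 24 h array of run 1, the 24 h array of run 3 and the untreated array of run 3. It missed the threshold without any other single array or any 1 run, at 0.0609 to 0.316, while the log2 fold change stayed between 0.73 and 0.96. The adjusted p was 0.0600 when every gene on the array was tested, and 0.0026 with the run as a block. At 24 h the call appeared without the 24 h array of run 1 (0.95, adjusted p = 0.036).

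P4HA1, the other common alpha subunit, did not pass at either time. It read 7.20, 7.18 and 7.83 in untreated cells, 7.23, 6.31 and 7.53 at 24 h, and 7.59, 6.46 and 7.87 at 48 h. The groups overlapped at both times. Run 2 was the lowest at all 3 times, with its treated arrays furthest down. The difference was −0.38 at 24 h (interval −1.30 to 0.54, adjusted p = 0.709, limma) and −0.10 at 48 h (interval −1.01 to 0.82, adjusted p = 0.984). Both intervals end below the change measured for P4HA2 at the same time, 0.80 at 24 h and 0.86 at 48 h. They overlap the intervals of P4HA2, however, which run from 0.35 to 1.25 and from 0.41 to 1.31. All of these intervals come from the fit without the block. With the run as a block the SE was 0.20 for P4HA1 and 0.12 for P4HA2, against 0.41 and 0.20 without it. The overlap therefore includes the spread between runs and does not decide whether the 2 genes differ.

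The log2 difference between the 2 alpha subunits, P4HA2 minus P4HA1, was larger at 24 h than in untreated cells by 0.62, 1.66 and 1.26 in runs 1, 2 and 3 (mean 1.18). At 48 h it was larger by 0.55, 1.43 and 0.89 (mean 0.96). The exact two-sided permutation test gave p = 0.1 for each time, the smallest value that 3 against 3 arrays allow, and 0.45 after Benjamini-Hochberg adjustment over the 9 comparisons made. Those 9 were 3 pairs of relatives, each at 24 h and 48 h against untreated cells and at 48 h against 24 h, and the pairs were chosen after values were seen. For P4HA2 minus P4HA1 the difference between 48 h and 24 h was −0.22 (exact p = 0.5, adjusted 0.643). PLOD3 minus PLOD2 differed by 0.74 at 24 h and −0.05 at 48 h from untreated cells (exact p = 0.3 and 0.7), and PLOD1 minus PLOD2 by 0.72 and 0.17 (exact p = 0.2 and 0.7). Between 48 h and 24 h those pairs differed by −0.79 and −0.56 (exact p = 0.3 and 0.4). None of the 9 could pass, because this test cannot go below 0.1 with 3 against 3 arrays. It also took no account of the runs, so it does not decide whether the pairs differ.

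**Figure D1:**
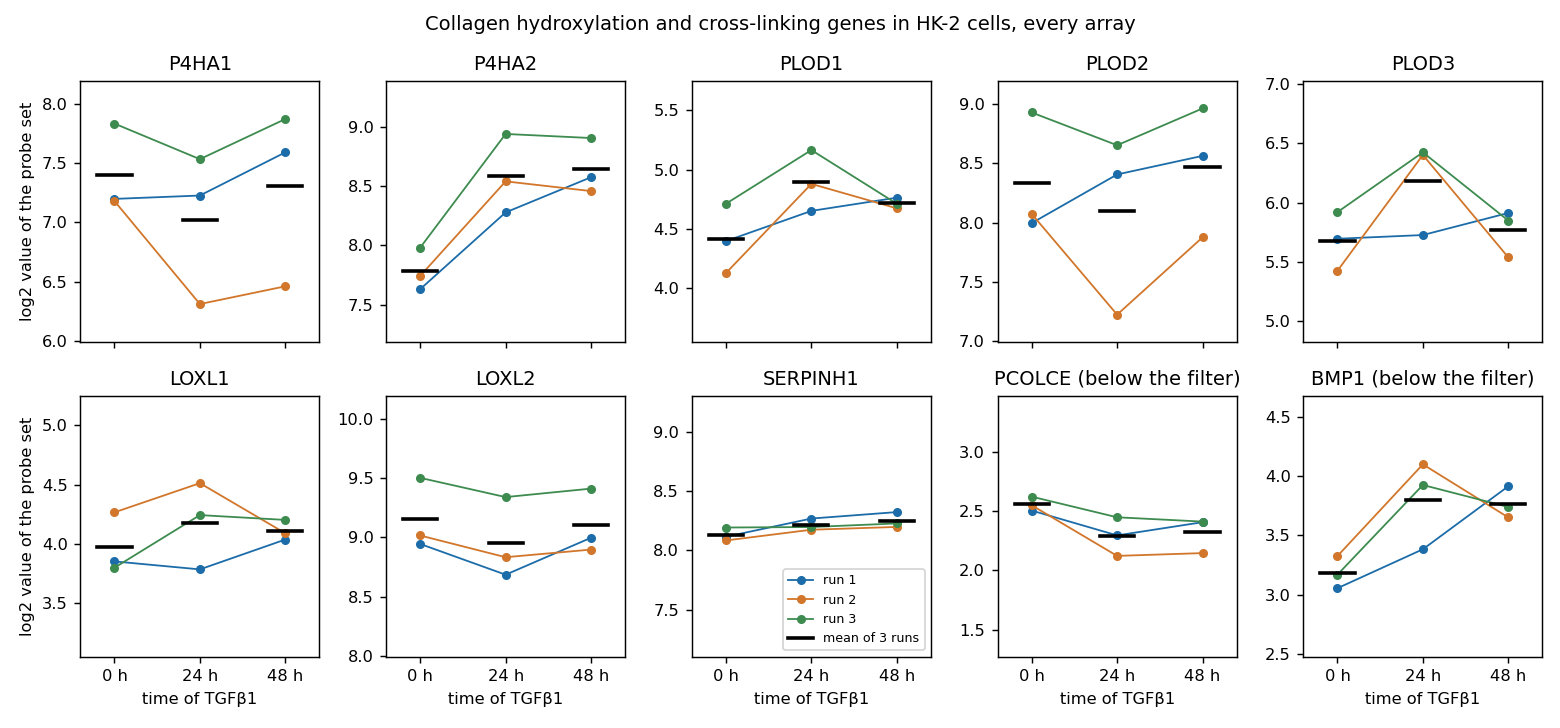
Log2 value of the probe set of each of the 10 genes (vertical axis, each panel spanning the same range) against time of TGFβ1 (0, 24 and 48 h), with 1 coloured line per run and a black bar at the mean of the 3 runs. P4HA2 is above its untreated values on all 6 treated arrays, while P4HA1 and PLOD2 dip in run 2, to 6.31 and 7.23 at 24 h.

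Among the lysyl hydroxylases no gene passed the threshold at either time. PLOD2, which hydroxylates the telopeptide lysines that give stable cross-links, read 8.0, 8.07 and 8.93 in untreated cells, 8.41, 7.23 and 8.65 at 24 h, and 8.56, 7.88 and 8.96 at 48 h. Its groups overlapped, and its changes at 24 h ran in opposite directions, at 0.41 in run 1, −0.85 in run 2 and −0.28 in run 3. The mean change was −0.24 at 24 h (interval −1.18 to 0.70, adjusted p = 0.839, limma) and 0.13 at 48 h (interval −0.80 to 1.07, adjusted p = 0.965). A second PLOD2 probe set (202619_s_at) went the same way, with 6.97, 6.69 and 7.75 in untreated cells, 7.26, 5.79 and 7.25 at 24 h, and 7.46, 6.59 and 7.61 at 48 h. The low 24 h value of run 2 was therefore read by both of its probe sets. Without the 24 h array of run 2, the PLOD2 difference at 24 h was 0.20 rather than −0.24.

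PLOD1, which hydroxylates lysines of the helix, read 4.4, 4.13 and 4.71 in untreated cells, 4.65, 4.88 and 5.17 at 24 h, and 4.76, 4.67 and 4.71 at 48 h. It was higher in 3 of 3 runs at 24 h, but the groups overlapped, and the difference of 0.49 did not pass (interval 0.08 to 0.90, adjusted p = 0.226, limma; 0.0713 with the run as a block). At 48 h the difference was 0.30 (adjusted p = 0.563), and run 3 contributed a change of 0, its untreated and 48 h arrays having the same deposited value.

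PLOD3, which also adds sugars to hydroxylysine, read 5.70, 5.43 and 5.92 in untreated cells, 5.73, 6.40 and 6.42 at 24 h, and 5.91, 5.54 and 5.85 at 48 h. At 24 h runs 2 and 3 stood above every untreated array and run 1 did not. The differences were 0.50 at 24 h (interval 0.01 to 1.00, adjusted p = 0.301, limma) and 0.09 at 48 h (adjusted p = 0.955). The difference of 48 h from 24 h, −0.42, did not pass either (adjusted p = 0.781).

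SERPINH1 varied least. It read 8.11, 8.08 and 8.19 in untreated cells, 8.27, 8.17 and 8.20 at 24 h, and 8.32, 8.20 and 8.23 at 48 h. All 3 arrays of 48 h lay just above the 3 untreated arrays. Within runs they were higher by 0.21, 0.11 and 0.03. The difference was 0.08 at 24 h (interval −0.17 to 0.34, adjusted p = 0.786, limma) and 0.12 at 48 h (interval −0.14 to 0.37, adjusted p = 0.775). Both intervals stop short of the change measured for P4HA2. Its SE, 0.114, was the smallest among the 8 tested genes.

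Of the cross-linking enzymes, LOXL2, which also acts on type IV collagen of basement membranes, was read from its brightest probe set (202998_s_at). The values were 8.94, 9.02 and 9.5 in untreated cells, 8.69, 8.83 and 9.34 at 24 h, and 9.0, 8.9 and 9.41 at 48 h. It was lower in 3 of 3 runs at 24 h, by 0.16 to 0.26 on the log2 scale, and the groups overlapped. The differences were −0.20 at 24 h (interval −0.71 to 0.31, adjusted p = 0.725, limma) and −0.05 at 48 h (interval −0.56 to 0.46, adjusted p = 0.984). The other 2 LOXL2 probe sets, 202997_s_at and 202999_s_at, lay below 4 on all 9 arrays and so near background. LOXL1, a lysyl oxidase best known for elastic fibres, was close to the filter, with means of 3.97 ± 0.26 (untreated), 4.18 ± 0.37 (24 h) and 4.11 ± 0.08 (48 h) (SD, n = 3). It did not pass (0.21 and 0.14, adjusted p = 0.673 and 0.881, limma).

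The propeptide-processing pair lay below the filter and was not among the tested genes. BMP1 read 3.05, 3.32 and 3.17 in untreated cells on its brightest probe set (205574_x_at), 3.38, 4.10 and 3.92 at 24 h, and 3.91, 3.65 and 3.74 at 48 h. The 6 treated arrays lay above the 3 untreated ones, close to background. Fitted with every gene on the array, the differences were 0.62 ± 0.18 at 24 h (adjusted p = 0.178, limma) and 0.58 at 48 h (adjusted p = 0.23). A further BMP1 probe set (207595_s_at) had means of 2.72 (untreated), 3.12 (24 h) and 3.03 (48 h), whereas 206725_x_at had 2.80, 2.78 and 3.0. The remaining set, 202701_at, had 2.54, 2.89 and 2.81. Sets named x_at can hold probes that match other sequences. PCOLCE had 2.50, 2.55 and 2.62 in untreated cells, 2.29, 2.12 and 2.45 at 24 h, and 2.41, 2.15 and 2.41 at 48 h. The 6 treated arrays lay below the 3 untreated ones, and the fit with every gene gave −0.27 at 24 h (adjusted p = 0.469, limma) and −0.24 at 48 h (adjusted p = 0.646). These values lie near the array median of 2.20 to 2.23, where signal and background cannot be told apart. The share of genes below the filter whose groups were separated, as for BMP1 and PCOLCE, was not counted.

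**Figure D2:**
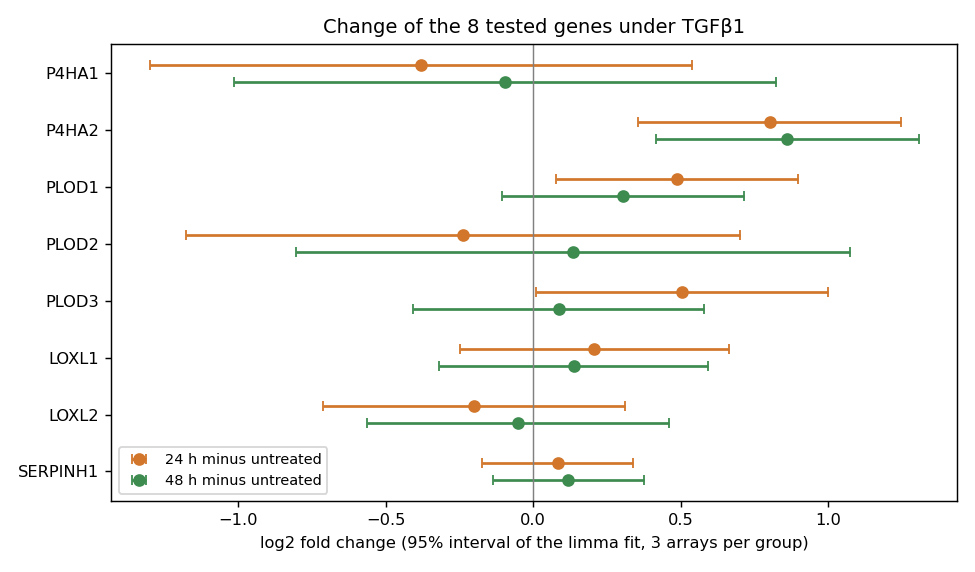
Log2 fold change against untreated cells (horizontal axis) of the 8 tested genes, at 24 h (orange, upper point) and 48 h (green, lower point), with 95% intervals of the limma fit on 3 arrays per group. The intervals of P4HA2, from 0.35 to 1.25 and from 0.41 to 1.31, lie to the right of 0 at both times, and those of P4HA1 and PLOD2 are the widest. Those of PLOD1 (0.08 to 0.90) and PLOD3 (0.01 to 1.00) lie to the right of 0 at 24 h only. The intervals are not adjusted for the number of genes.

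Counted over the genes, 0 of the 8 passed at 24 h, beside 4.81% of all tested genes, and 3 (P4HA2, PLOD1 and PLOD3) had an unadjusted p of at most 0.05, beside 16.0%. With the run as a block 1 of 8 passed at 24 h, beside 11.5%. At 48 h 1 of 8 passed, beside 4.44%, and 1 of 8 with the block, beside 10.0%. With 8 genes, 1 call does not set them apart from these shares. The 24 h arrays were higher in all 3 runs for 4 genes (P4HA2, PLOD1, PLOD3 and SERPINH1), beside 24.9%, and lower in all 3 for LOXL2, beside 19.8%. At 48 h 2 genes (P4HA2 and SERPINH1) were higher in all 3 runs, beside 23.2%, and 0 were lower, beside 18.2%. Groups did not overlap for 1 of 8 genes at 24 h, beside 16.4%, and for 2 of 8 at 48 h, beside 18.1%. The median log2 fold change of the 8 was 0.15 at 24 h and 0.13 at 48 h, against 0.02 and 0.02 over all tested genes. The comparison of 48 h with 24 h called 0 genes of the 4368 in limma, with or without the block, and 219 (5.01%) at an unadjusted p of at most 0.05, 0 of them among the 8. Between 48 h and 24 h the groups of 0 of the 8 were separate, beside 12.6%, while P4HA1, PLOD2, LOXL2 and SERPINH1 were higher at 48 h in all 3 runs, beside 21.1%, and 0 were lower, beside 22.3%. The F test over the 3 groups called 180 genes (4.12%) and none of the 8 (P4HA2 adjusted p = 0.0589). With the run as a block it called P4HA2 (adjusted p = 0.00381), beside 11.2%.

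P4HA1 and PLOD2 differed more between runs than most genes. After removal of the group means, P4HA1 lay at 0.09, −0.59 and 0.50 in runs 1, 2 and 3, and PLOD2 at 0.02, −0.57 and 0.55. The range over runs, 1.1 for P4HA1 and 1.12 for PLOD2, was wider than for 97.9% and 98.1% of the tested genes, whose median range was 0.34. For P4HA2 it was 0.45, for LOXL2 0.54 and for SERPINH1 0.08. Both P4HA1 and PLOD2 are known targets of hypoxia-inducible factors, as is P4HA2. ACGTG stands in the windows of P4HA1 and PLOD2 and also in that of SERPINH1, whose range over runs was the smallest of the 8.

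A list of hypoxia response genes was set beside them, 24 of which were on the array and 18 tested. The median of the 18 genes lay at −0.14, −0.44 and 0.53 in runs 1, 2 and 3, with 14, 16 and 0 of the 18 below their mean. Run 2 was thus the lowest and run 3 the highest for P4HA1, PLOD2 and the list alike. PLOD1 had the same order (−0.07, −0.12 and 0.19), as did PCOLCE near background. The other tested genes had other orders, with run 3 still the highest for P4HA2, PLOD3 and LOXL2. The shares of all tested genes with this order, or below their mean in each run, were not counted. At 24 h the median within-run change of the list was −0.31, −0.55 and −0.38 in runs 1, 2 and 3, and at 48 h it was 0.03, −0.46 and −0.05. Over all tested genes these medians lay between 0.00 and 0.03. The 2 genes did not follow the list's median in every run. In run 1 at 24 h, where 15 of the 18 genes were lower, P4HA1 was higher by 0.03 and PLOD2 by 0.41, and in run 2 at 48 h, where 17 were lower, they differed by −0.72 and −0.20. Of the 18 genes 0 passed at either time. With the run as a block 1 rose and 5 fell at 24 h, beside 11.5% of all tested genes called, and 1 rose and 3 fell at 48 h, beside 10.0%. Among them were CA12, a carbonic anhydrase (−1.71 at 24 h, adjusted p = 0.00358 with the block), and the glucose transporter SLC2A1, which rose (0.55, adjusted p = 0.0359 with the block). Also lower at 24 h with the block (limma) were ADM (−0.85, adjusted p = 0.00732), NDRG1 (−0.93, 0.0079), BNIP3 (−0.94, 0.0265) and SLC2A3 (−1.01, 0.0291). CA12 lay below 4 on all 6 treated arrays and passed the filter through the 3 untreated ones alone, so that it had to differ to be tested. The part of hypoxia, or of any other difference between runs, in the values of P4HA1 and PLOD2 was not tested.

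**Figure D3:**
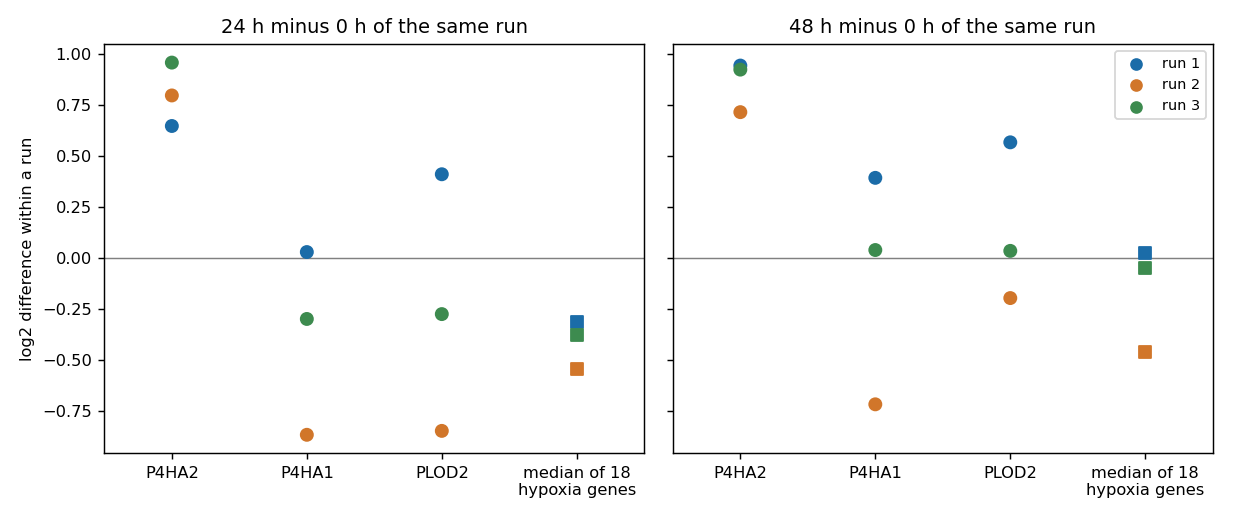
Log2 difference between treated and untreated cells of the same run (vertical axis) for P4HA2, P4HA1, PLOD2 and the median of the 18 tested hypoxia genes, at 24 h (left) and 48 h (right), with 1 coloured point per run. P4HA2 lies between 0.65 and 0.96 in every run, whereas run 2 is the lowest for P4HA1 (−0.87 and −0.72), PLOD2 (−0.85 and −0.20) and the hypoxia median (−0.55 and −0.46). In run 1 at 24 h PLOD2 is at 0.41 and the hypoxia median at −0.31.

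The partners of these enzymes were read from lists of known pathway genes. Of 6 prolyl hydroxylase partners on the array 5 were tested and none passed at either time, with or without the block. P4HB, the beta subunit shared by both alpha subunits, had means of 8.92 (untreated), 9.0 (24 h) and 9.02 (48 h) (0.08 and 0.10, adjusted p = 0.893 and 0.917, limma). The prolyl 3-hydroxylase P3H1 differed by 0.49 and 0.48 (adjusted p = 0.18 and 0.21), and PPIB, a prolyl isomerase that works with it, by 0.19 and 0.11. P3H1 passed the filter through its treated arrays alone. The list's median was 0.08 at 24 h and 0.11 at 48 h. Of 4 lysine modification partners only TMEM38B, an ion channel of the endoplasmic reticulum, was tested, and it did not pass (0.16 and 0.24).

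Of 14 folding and export partners 12 were tested and none passed. With the run as a block 2 rose at 48 h, beside 10.0% of all tested genes called in either direction. They were SEC24D (1.30, adjusted p = 0.01) and SEC23A (0.55, adjusted p = 0.0346), both coat proteins of the vesicles that carry procollagen out of the endoplasmic reticulum. SEC24D read 4.62, 3.81 and 5.62 in untreated cells, 5.06, 5.29 and 5.80 at 24 h, and 5.77, 5.77 and 6.42 at 48 h, so that it was higher in 3 of 3 runs at both times. Its adjusted p without the block was 0.467 at 24 h and 0.14 at 48 h (limma). FKBP14, a prolyl isomerase, differed by 0.46 and 0.89, and HSPA5, the general chaperone BiP, by 0.17 and 0.12, without passing. FKBP14 was below 4 on all untreated arrays. The median of the 12 genes was 0.07 at 24 h and 0.19 at 48 h.

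ADAMTS3, a procollagen N-proteinase, fell. It read 7.85, 8.0 and 8.11 in untreated cells, 6.61, 6.13 and 6.27 at 24 h, and 6.82, 7.07 and 6.69 at 48 h, with no overlap between treated and untreated arrays. The log2 fold change was −1.65 ± 0.17 at 24 h (adjusted p = 0.000704, limma) and −1.13 at 48 h (adjusted p = 0.00496). The other tested member of the 8 propeptide processing partners on the array, PCOLCE2, a relative of PCOLCE, did not pass (0.34 and 0.24, adjusted p = 0.571 and 0.802).

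LOX, the founding lysyl oxidase, was 1 of 2 tested genes among the 4 cross-linking partners on the array. It read 2.49, 2.72 and 3.66 in untreated cells, 3.99, 3.68 and 5.88 at 24 h, and 4.62, 3.56 and 5.74 at 48 h. It was higher in 3 of 3 runs at both times and run 3 lay above the others throughout. The 24 h arrays just cleared the untreated ones, and the 48 h arrays overlapped with them. LOX was below 4 on all untreated arrays and passed the filter through 3 treated arrays alone, so that it had to differ to be tested. The log2 fold change was 1.56 ± 0.66 at 24 h and 1.68 at 48 h. Neither passed (adjusted p = 0.286 and 0.266, limma), and both did with the run as a block (adjusted p = 0.0075 and 0.00538). TGM2, a transglutaminase that forms another kind of cross-link, did not pass (0.51 and 0.34, adjusted p = 0.308 and 0.625).

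**Figure D4:**
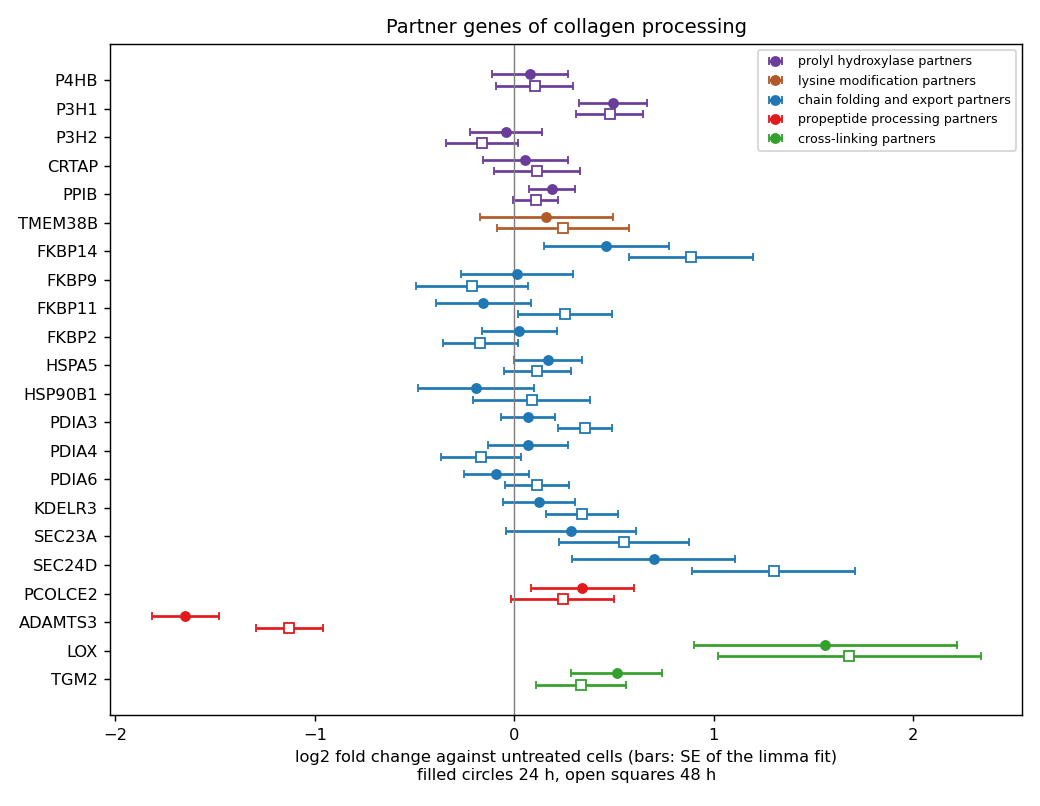
Log2 fold change against untreated cells (horizontal axis) of the 22 tested partner genes, coloured by list, at 24 h (filled circles) and 48 h (open squares), with the SE of the limma fit on 3 arrays per group as bars. ADAMTS3 stands to the left at −1.65 and −1.13, and LOX to the right at 1.56 and 1.68 with the widest bars.

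Of 20 collagen chain genes on the array, the substrates of these enzymes, 5 were tested, and COL4A1 (0.83, adjusted p = 0.0352, limma), COL6A1 (0.50, adjusted p = 0.0475) and COL7A1 (0.97, adjusted p = 0.0495) rose at 24 h. At 48 h COL7A1 rose (1.30, adjusted p = 0.0133). It read 4.00, 3.75 and 3.72 in untreated cells, and so passed the filter through its treated arrays. With the run as a block COL4A2 was also called at 24 h (0.66, adjusted p = 0.00434), and COL4A1 (0.76, adjusted p = 0.00191) and COL4A2 (0.59, adjusted p = 0.00804) at 48 h. Of all tested genes, 4.81% were called in either direction at 24 h and 4.44% at 48 h, and 11.5% and 10.0% with the block. FBN1, a microfibril protein, rose at both times (1.59 and 2.34, adjusted p = 0.0122 and 0.00162), and it was the 1 gene tested of 4 listed for other proteins of this biology. Its untreated arrays were all below 4, so it too was tested through its treated arrays alone, and its count is not support for a rise of that list. By the rule that lists, for each gene past the threshold, the 5 genes most like it, P4HA2 was closest to VIM, SPARC, MALL, TSPAN13 and COL4A2. Their Pearson r with P4HA2 over the 9 arrays was 0.976, 0.976, 0.973, 0.972 and 0.970. These 5 are the highest of 4367 values, over arrays that share runs and treatment, so they are a description.

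Markers were read to check the labelled cell type. Of 6 epithelial markers 5 were at 4 or more on all 9 arrays and CDH1 was below 4 on all of them. Of the 5, EPCAM, an epithelial adhesion protein, fell at both times (−1.27 and −1.17, adjusted p = 0.00116 and 0.00172, limma), and CDH2, the cadherin of proximal tubule cells, rose (1.41 and 1.5, adjusted p = 0.0298 and 0.0222). KRT8, a keratin of simple epithelia, differed by 0.65 at 24 h (adjusted p = 0.064, limma) and was called higher there with the run as a block (adjusted p = 0.0123). The summed linear signal of the 6 was 1790 to 2177 at 24 h and 1550 to 1920 at 48 h, against 1825 to 2202 in untreated cells. Of 8 proximal tubule markers on the array PAX8, a kidney transcription factor, alone was at 4 or more, and it fell (−0.60 and −0.81, adjusted p = 0.0233 and 0.00496). The other 7 (SLC34A1, SLC5A2, LRP2, CUBN, ANPEP, AQP1 and MME) were below 4 on all arrays, so most defining genes of that cell type were not seen. The summed signal of the 8 was 127 to 137 at 24 h and 108 to 123 at 48 h, against 185 to 191 in untreated cells. Of 8 fibroblast markers LUM alone was at 4 or more, COL1A1, COL1A2 and COL3A1 were below 4 on all arrays, and the summed signal was 86.6 to 122 at 24 h and 132 to 151 at 48 h, against 108 to 138 in untreated cells. Below the filter and untested, COL1A1 had means of 1.73 (untreated), 3.08 (24 h) and 2.84 (48 h), with all treated arrays above the untreated ones. The means of COL1A2 and COL3A1 were lower in treated cells, near background. The part of these shifts in the change of P4HA2 was not tested. The 4 endothelial and 3 leukocyte markers on the array were below 4 on all arrays.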

How the data were processed

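RNA of 9 cultures of HK-2 cells was hybridised to 1-colour Affymetrix arrays. The deposited values are on a log2 scale, 1 per probe set, made by the authors with GCRMA per the submitters' processing notes, a method that corrects background by probe sequence and normalizes between arrays. No version is named in the sources used here. That the scale is log2 was read from the range of the values (highest 12.5). Values near the array medians, 2.20 to 2.23, cannot be told from background, and changes there come out too small. Precision is set by the number of arrays.

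Of 22277 probe sets, 62 were controls, and 19070 had 1 symbol, 1043 several and 2164 none in the platform annotation. Symbols were updated by gene ID for 19058. Sets with 1 symbol were named, and the set with the highest mean was taken per gene. limma 3.58.1 in R 4.3.3 (lmFit, eBayes, two-sided, no block) was run on the genes past the filter, and the script was tested on simulated data. Per the labels the experiment was done on 3 days. Same-numbered arrays deviated together from their group means (r of 0.378 to 0.662, against −0.526 to 0.185 for unlike numbers), and 9 of 9 arrays were closest to their own number, so numbers were taken as runs. The low-value filter was kept at the same genes when arrays were left out, a choice made after a first version that recomputed it.

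The genes and lists were chosen with earlier results of these data known. All 10 genes were named whatever their values. Of each partner list, those past the threshold and up to 3 with the smallest p at 24 h were named, and of genes like P4HA2 the first 5. SEC23A, ADM, NDRG1 and SLC2A3 were named after their values with the block were seen. Alternatives were the run as a block, other filters, probe set rules, normalizations and limma settings, and leaving out arrays or runs.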

Additional observations from a re-analysis of the deposited data

How the results depend on the processing

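Fitting the run as a block, the pairing of the arrays, raised the calls over all genes to 501 at 24 h, 438 at 48 h and 491 in the F test, against 210, 194 and 180 without it, and called 1 of the 8 genes (P4HA2) at 24 h and in the F test, against 0. It changed no other call of the 8. P4HA2 was also called at 24 h and in the F test with a stricter filter (at least 6 on 3 arrays, 1 of the 5 genes then tested), and as 1 of 8 with the mean of probe sets, quantile normalization, median centring and a mean-variance trend. Without a filter 0 of 10 genes were called at 48 h. Fitting only the 2 groups compared gave 124 calls at 24 h.

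Leaving out an array or a run gave 34 to 213 calls at 24 h, 33 to 206 at 48 h and 26 to 197 in the F test, and 0 to 1 of the 8 genes in each. The low counts of 34 and 33 came without run 1 and that of 26 without run 3, fits with fewer arrays. Changes that did not pass could turn sign there. At 24 h PLOD2 ranged from −0.56 to 0.20. At 48 h against untreated cells P4HA1 ranged from −0.38 to 0.33, PLOD2 from −0.11 to 0.43, PLOD3 from −0.041 to 0.21 and LOXL2 from −0.21 to 0.12. At 48 h against 24 h P4HA1 ranged from −0.072 to 0.71, P4HA2 from −0.094 to 0.24, PLOD2 from −0.062 to 0.67, LOXL1 from −0.27 to 0.11, LOXL2 from −0.0057 to 0.34 and SERPINH1 from −0.00077 to 0.064. No change of the 8 genes turned sign under the other alternatives. Values of PCOLCE and BMP1 are limited by background.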
